A study of Mus musculus with 10 samples.

Results

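Lactylation of histone H3 at lysine 9 (H3K9lc) was examined at the regions that lie nearest to olfactory and vomeronasal receptor genes in mouse cardiac fibroblasts. The members were all listed H3K9lc regions whose nearest gene, as annotated by the authors, had a symbol starting with Olfr, Vmn1r or Vmn2r. There were 3716 such regions among 74751 listed (4.97%), of which 1775 were assigned to Olfr genes, 937 to Vmn1r genes and 1004 to Vmn2r genes, and they named 925 genes. The same families had 3234 of 65853 regions in the H3K9lc table of TGF-β against control, at 897 genes of which 860 were among the 925. They had 207 of 72990 regions in the c-JUN table, at 120 genes of which 72 were among the 925. A name here means the nearest start site and not that the region lies in the receptor gene.

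The libraries were CUT&Tag libraries, a method in which transposase bound to an antibody cuts and tags DNA near the target for sequencing. All cells were primary fibroblasts from mouse heart and their labels give no strain, age or sex. Of 10 libraries 5 were used, with 1 library per condition and antibody. The control library (NC) had no treatment, the TGF libraries had TGF-β, and the siHK1 libraries had siRNA against hexokinase 1 (HK1), the enzyme of the first step of glycolysis, followed by TGF-β. The label of NC gives no antibody, and it was taken as an H3K9lc library from the table its description points to. The H3K9lc library with HK1 siRNA is titled SI and is called siHK1 after the table its label names. With 1 library per condition there is no replicate error, no difference was tested, and each statement compares libraries. Intervals are 95% intervals. Those of reads and of ratios of reads cover counting error only, and those of medians and of shares of regions describe the spread over regions, which are not replicates of a condition. The tables used here hold no RNA measure, so the knockdown and the silence of the receptor genes were not checked. Marker genes of cell types were also counted, without the same count over all genes, so the numbers cannot settle the cell type. Among them, 9 of 10 fibroblast marker genes and 2 of 8 olfactory or vomeronasal neuron marker genes had a JUN region within 3 kb of a start site. It was 1 of 5 for cardiomyocyte, 3 of 4 for endothelial and 1 of 4 for leukocyte markers. In the H3K9lc table the numbers were 1 of 10 (Lum) for fibroblasts, 3 of 5 for cardiomyocytes, 0 of 4 for endothelial cells, 0 of 4 for leukocytes and 1 of 8 (Ano2) for olfactory or vomeronasal neurons.

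Olfactory receptors and the vomeronasal receptors of type 1 and type 2 are G protein-coupled receptors that bind odorants and pheromones. Each sensory neuron of the nose expresses a single olfactory receptor, and in other tissues nearly all these genes are silent. The genes lie in large tandem clusters on many chromosomes, formed by repeated duplication. Heterochromatin rich in methylated H3K9 has been described at olfactory receptor clusters, but it was not measured in the libraries used here. Lysine lactylation is a histone modification made from lactyl groups that derive from lactate, an end product of glycolysis, and H3K9lc shares its lysine with H3K9 acetylation and methylation. c-JUN is a subunit of AP-1, a transcription factor that binds open regulatory elements, and serves here as a contrast from the same cells.

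The sequences of 7 of these regions are shown because the results below turn on them. Each is the central 240 bases on the plus strand of GRCm38, read from the RefSeq sequence of that assembly. Capitals mark bases that the reference does not mask as repeats or low-complexity sequence. The first 3 are the region with the highest H3K9lc level in each family.
Vmn1r2 (chr4:3090251-3090490): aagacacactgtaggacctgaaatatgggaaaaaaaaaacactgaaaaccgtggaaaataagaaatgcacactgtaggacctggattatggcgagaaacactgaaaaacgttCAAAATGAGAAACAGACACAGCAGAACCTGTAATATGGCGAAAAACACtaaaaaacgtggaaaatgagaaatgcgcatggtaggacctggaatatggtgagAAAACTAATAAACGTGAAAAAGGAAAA
Olfr161 (chr16:3236678-3236917): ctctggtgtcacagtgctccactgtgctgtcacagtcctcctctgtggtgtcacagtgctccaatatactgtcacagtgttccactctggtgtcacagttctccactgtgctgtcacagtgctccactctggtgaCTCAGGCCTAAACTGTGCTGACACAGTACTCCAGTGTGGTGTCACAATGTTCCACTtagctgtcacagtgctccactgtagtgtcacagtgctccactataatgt
Vmn2r123 (chr4:156357233-156357472): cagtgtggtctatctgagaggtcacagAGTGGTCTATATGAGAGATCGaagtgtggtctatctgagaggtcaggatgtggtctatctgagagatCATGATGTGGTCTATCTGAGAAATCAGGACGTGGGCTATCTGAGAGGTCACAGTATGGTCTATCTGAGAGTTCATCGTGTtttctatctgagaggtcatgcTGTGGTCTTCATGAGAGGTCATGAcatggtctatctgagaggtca
The next 3 are, among regions of above-median level in their family, the Olfr and Vmn1r regions with the lowest ratio of siHK1 to TGF and the Vmn2r region with the highest.
Olfr1507 (chr14:52503490-52503729): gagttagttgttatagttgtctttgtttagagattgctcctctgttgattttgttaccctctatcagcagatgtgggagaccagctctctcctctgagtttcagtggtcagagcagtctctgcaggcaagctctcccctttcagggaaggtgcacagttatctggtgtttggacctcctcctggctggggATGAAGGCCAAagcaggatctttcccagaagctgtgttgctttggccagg
Vmn1r127 (chr7:21329193-21329432): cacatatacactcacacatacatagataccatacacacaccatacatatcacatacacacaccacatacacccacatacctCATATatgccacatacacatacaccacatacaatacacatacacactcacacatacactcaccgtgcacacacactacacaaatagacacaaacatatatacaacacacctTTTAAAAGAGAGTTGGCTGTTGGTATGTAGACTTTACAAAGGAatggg
Vmn2r47 (chr7:8776140-8776379): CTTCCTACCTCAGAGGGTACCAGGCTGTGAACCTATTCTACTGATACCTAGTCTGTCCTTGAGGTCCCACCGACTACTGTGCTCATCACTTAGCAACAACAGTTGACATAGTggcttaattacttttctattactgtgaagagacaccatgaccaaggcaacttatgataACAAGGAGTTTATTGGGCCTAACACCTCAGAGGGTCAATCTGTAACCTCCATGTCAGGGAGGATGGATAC
The last lies at a receptor start site, in the region of highest level there whose centre holds no annotated untranslated sequence.
Vmn2r60 (chr7:42125536-42125775): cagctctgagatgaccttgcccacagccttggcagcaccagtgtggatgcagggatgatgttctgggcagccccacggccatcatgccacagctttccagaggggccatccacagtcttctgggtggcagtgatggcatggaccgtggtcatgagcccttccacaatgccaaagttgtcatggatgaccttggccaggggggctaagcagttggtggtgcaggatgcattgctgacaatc
The regions of highest level held short tandem copies. The Vmn2r123 sequence matched itself at 78.7% of bases when shifted by 24 bases, the Olfr161 sequence at 78.3% when shifted by 42 bases and the Vmn1r2 sequence at 61.3% when shifted by 59 bases, the best shifts between 10 and 60 bases. For the other 4 sequences the best such match was between 32.8% and 39.7%.

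Receptor clusters held more H3K9lc regions than the rest of the genome and far fewer JUN regions. The part of the genome whose nearest start site belongs to a receptor gene was 53.7 Mb, or 2.03% of sequenced bases. It held 3496 H3K9lc region midpoints, 4.68% of all (interval 4.53 to 4.83), which is 65.1 per Mb against 27.5 per Mb near all other genes, a 2.37-fold higher density. The density was 55.7 per Mb near Olfr genes, 72.3 per Mb near Vmn2r genes and 86.2 per Mb near Vmn1r genes. In the table of TGF against NC, where the list of regions was drawn up anew with the same TGF library, the receptor density was 56.8 per Mb against 24.2 per Mb.

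For JUN the order was turned around. Receptor territory held 194 JUN regions, 3.61 per Mb, against 28.1 per Mb near other genes, which is 7.77-fold lower. The JUN density was lowest near Vmn2r genes, at 1.49 per Mb, and was 3.81 per Mb near Vmn1r genes and 4.46 per Mb near Olfr genes. Receptor territory had 18.0 H3K9lc regions for each JUN region, and the rest of the genome 0.979. Receptor territory was also richer in masked repeats (51.4% of bases against 36.1%) and lower in GC (38.8% against 41.7%), and the part of this in the densities was not tested.

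**Figure D1:**
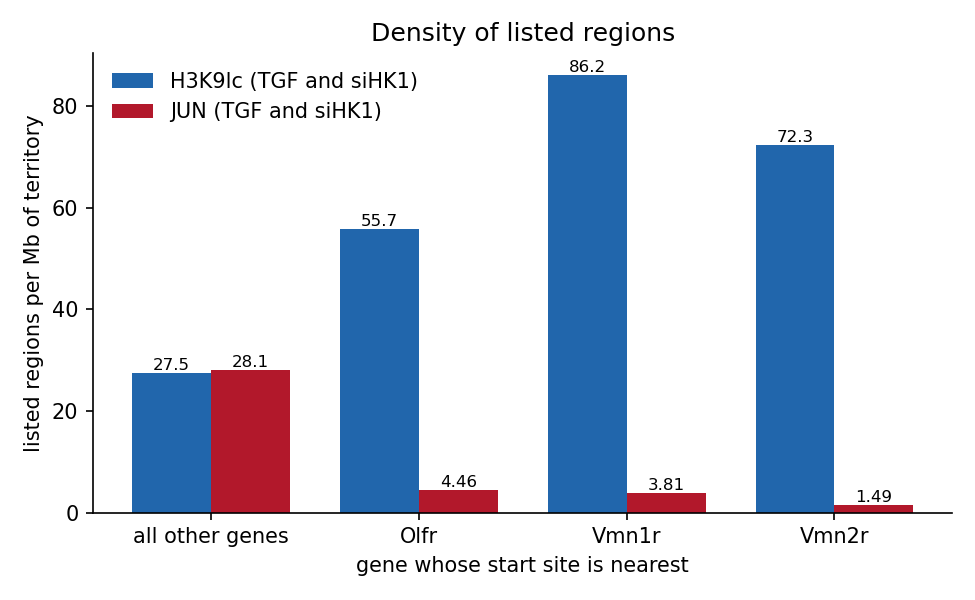
Listed regions per Mb of genome nearest to genes of each kind (bars), for H3K9lc and for JUN, each from a table of TGF and siHK1 libraries. H3K9lc regions reached 86.2 per Mb near Vmn1r genes against 27.5 per Mb near all other genes, whereas JUN regions stayed between 1.49 and 4.46 per Mb near receptors against 28.1 per Mb elsewhere.

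The regions were counted by gene, with no such count for other genes. Of 1439 receptor genes in the annotation 894 were the nearest gene of at least 1 H3K9lc region, made up of 624 of 1111 Olfr, 155 of 207 Vmn1r and 115 of 121 Vmn2r genes. Of the same 1439 genes 116 had a JUN region. The median number of H3K9lc regions per named gene was 2 for Olfr, 4 for Vmn1r and 6 for Vmn2r. Of 632 named Olfr genes, 234 had a single region. Olfr161 had the most of its family with 59, Vmn2r121 had 49 and Vmn1r107 had 28.

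The regions were sparse just before receptor start sites. The median distance to the nearest start was 14.6 kb for receptor regions and 52.9 kb for other regions. Within 10 kb of a start lay 34.3% of receptor regions and 17.7% of other regions, whereas 2.61% of receptor regions lay within 1 kb of a start (97 regions, interval 2.12 to 3.18), and 3.45% of other regions did. Within 3 kb the shares were 7.59% of receptor regions and 6.74% of other regions. In bins of 2 kb the 54 regions in the 2 kb before a receptor start were fewer than the 129 in the bin further upstream and the 97 in the bin downstream. Near other genes the bin before the start held 1386 regions, its upstream neighbour 1294 and its downstream neighbour 1401, with no such dip. Another 10 receptor regions covered a start site (0.269%), as did 865 other regions (1.22%). The JUN regions near receptors were too few to show or exclude such a dip, with 11 regions from 4 to 2 kb upstream, 10 in the 2 kb before the start and 12 in the 2 kb after it.

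**Figure D2:**
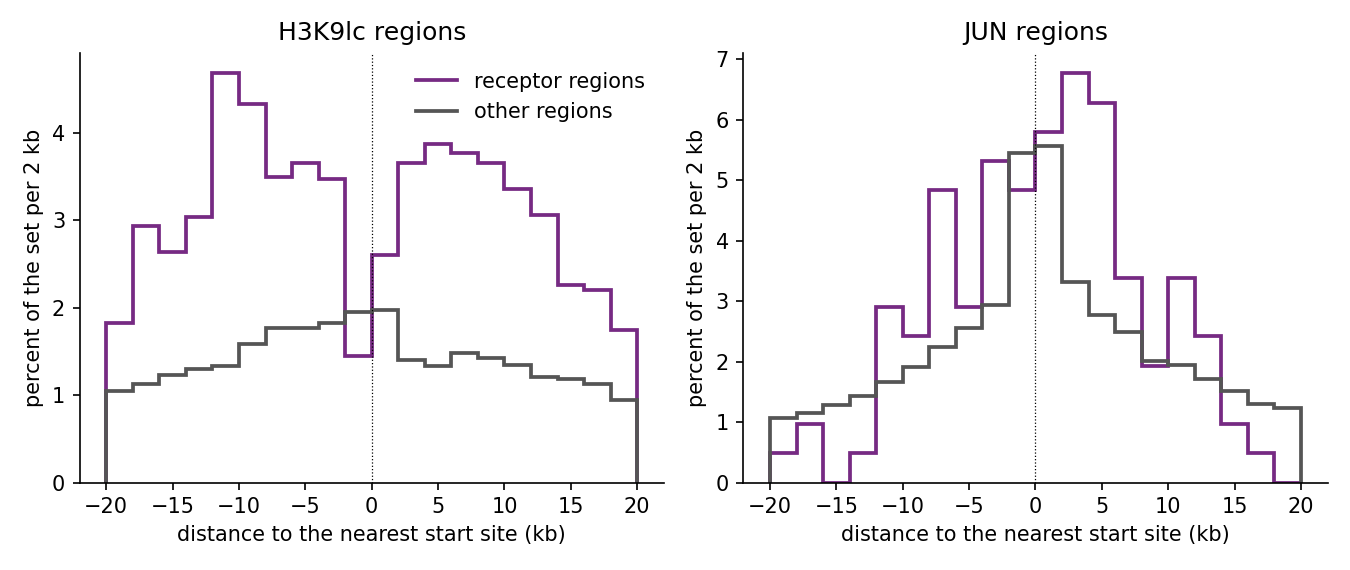
Percent of H3K9lc regions (left) and JUN regions (right) in each 2 kb of distance from the nearest start site, negative upstream, for receptor regions and other regions. Regions that cover a start are left out. The share of H3K9lc receptor regions dropped to 1.45% in the 2 kb before the start, below both neighbouring bins.

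By the authors' classes, 2841 receptor regions were distal intergenic (76.5%), 337 lay in introns, 282 within 3 kb of a start, 159 in other exons, 94 in 3′ UTRs and 3 in 5′ UTRs. Of other regions 64.7% were distal intergenic and 23.8% intronic. Intronic regions made up 23.8% of Vmn2r regions, whose genes have several long introns, but 3.55% of Olfr and 3.74% of Vmn1r regions, whose coding sequence sits in a single exon. Among JUN receptor regions 134 of 207 were distal intergenic and 40 within 3 kb of a start, 36 of them at Olfr genes.

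The receptor regions were rich in repeated sequence. The median share of masked bases was 78.2%, against 60.1% in other regions and 17.4% in JUN receptor regions. Among distal intergenic regions alone it was 83.9% near receptors and 72.3% elsewhere. To measure copies directly, windows of 50 bases were looked up in the whole genome on both strands. The median receptor region had an exact second copy of 35.7% of its windows, against 15.8% for other regions. All windows were repeated in 741 receptor regions (19.9%) and in 15.5% of other regions. By family this share was 11.8% for Olfr, 37.7% for Vmn1r and 17.8% for Vmn2r regions. No repeated window was found in 889 receptor regions (23.9%), against 37.99% of other regions. How the reads of such windows were placed is not known here, and the level of a single region with repeated windows may include reads of its copies. The GC content was close to that of other regions, at a median of 48.4% and 48.5%. The AP-1 motif letters TGANTCA, searched on both strands in the central 300 bases, were found in 8.72% of H3K9lc receptor regions and 9.48% of other H3K9lc regions. They were found in 45.9% of JUN receptor regions and 39.8% of other JUN regions.

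H3K9lc and JUN regions near receptors seldom coincided when counted from the H3K9lc side. Of 3716 receptor regions 54 overlapped a JUN region by at least 1 bp (1.45%, interval 1.09 to 1.89), against 6.15% of other H3K9lc regions. Counted from the JUN side, the 54 that overlapped were 26.1% of the 207 JUN receptor regions, against 6.02% of other JUN regions. The share was 54.3% for the 35 JUN regions of Vmn1r genes and 17.0% for the 153 of Olfr genes.

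The level of H3K9lc in the typical receptor region was like that elsewhere. The median receptor region had 41.7 reads per kb in TGF and 21.7 in siHK1, and the median other region 40.1 and 22.0. Vmn1r regions were higher, at 50.3 reads per kb in TGF, than Olfr regions at 39.5 and Vmn2r regions at 39.9. In raw reads the median was 16 reads per receptor region in TGF and 8 in siHK1. In the table with NC, the median receptor region held 1 read in NC and 17 in TGF, as did the median other region. No read in NC was found at 1567 of 3234 receptor regions (48.5%) and at 45.2% of other regions.

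The reads were concentrated in a few regions at the ends of the assembled chromosomes. Receptor regions held 127314 of 2490853 listed reads in TGF, a share of 5.11% (interval 5.08 to 5.14). Of these reads 31.7% fell in the 20 regions of highest level, which belonged to 7 genes. Of the 20, 17 lay within 250 kb of the first or last sequenced base of a chromosome. In all, 94 receptor regions (2.53%) lay that close to an end, and they held 34.3% of the receptor reads in TGF and 36.9% in siHK1. Among other regions 638 (0.898%) did, with 11.4% of the reads. The 94 were named after 11 genes, with 29 at Olfr161, 16 at Vmn1r238 and 15 at Vmn1r2. Without regions this close to an end the receptor share of reads was 3.84% in TGF and 3.52% in siHK1.

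The single highest region, at chr4:3089524-3091216 and 80867 bp from the start of Vmn1r2, held 5141 reads in TGF, 2775 in siHK1 and 272 in NC. It lay 39.5 kb from the first sequenced base of its chromosome. At a second Vmn1r2 region, chr4:3063969-3066155, the reads numbered 4338 in TGF, 2487 in siHK1 and 161 in NC. Both stood at nearly the same share of reads in TGF and siHK1, with log2 ratios of -0.08 and 0.01. The highest Olfr region, at chr16:3235948-3237647, was assigned to Olfr161 at a distance of 354751 bp. It held 3975 reads in TGF, 2195 in siHK1 and 151 in NC, and a second Olfr161 region at chr16:3233368-3234857 held 2744, 1556 and 110. Among Vmn2r genes, the region at chr4:156356708-156357997, 25573 bp from the start of Vmn2r123 and 0.119 kb from the last sequenced base, held 3149 reads in TGF and 1996 in siHK1. The region at chr10:130594394-130595023, nearest to Vmn2r87 and ending at the last sequenced base of its chromosome, held 2604 and 1829. The 5 JUN receptor regions of highest level lay at Vmn2r87, Vmn1r2 and Olfr161 and all overlapped an H3K9lc region, with 722 JUN reads in TGF and 558 in siHK1 at the Vmn2r87 region and 486 and 387 at the first Vmn1r2 region. The Vmn2r87, Vmn1r2 and Olfr161 regions thus held reads in all 5 libraries with either antibody, and the part of the antibody target in this signal was not tested.

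**Figure D3:**
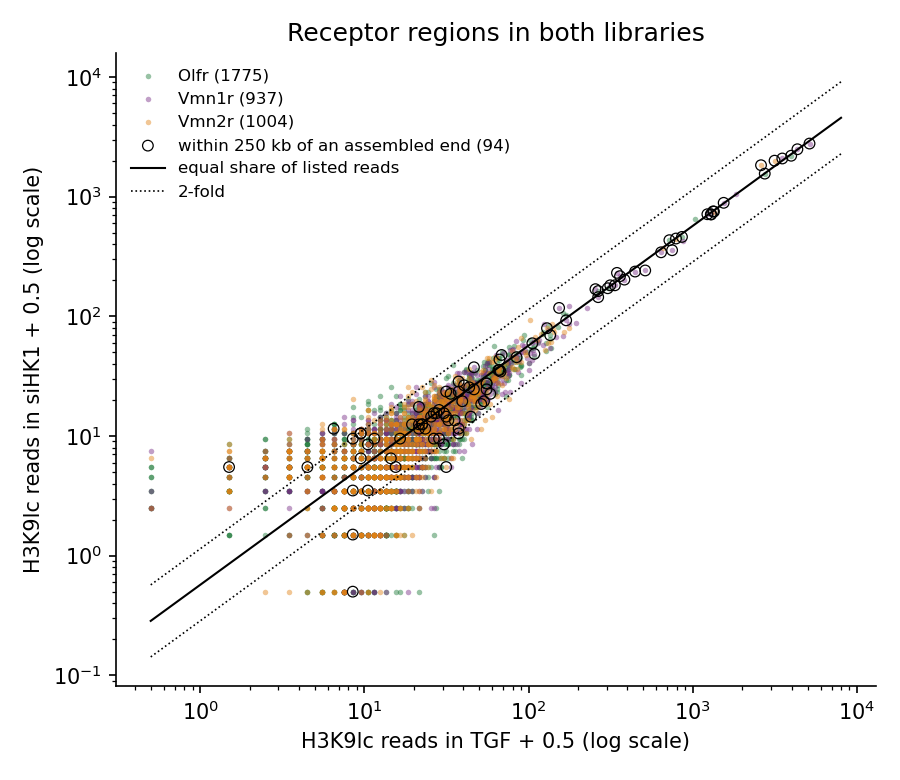
H3K9lc reads of each receptor region in the TGF library (x axis) and the siHK1 library (y axis), with 0.5 added, both on log scales. Colours give the family, circles mark the 94 regions within 250 kb of an end of the assembled chromosome, the solid line an equal share of listed reads and the dotted lines a 2-fold difference. The 6 regions of highest level described by position, 2 in each family, lie close to the solid line, from a log2 ratio of -0.08 at Vmn1r2 to 0.30 at Vmn2r87.

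The siRNA against HK1 in TGF-β-treated cells was examined next, after both libraries were brought to equal totals over all listed regions. Receptor regions were slightly lower in siHK1 than in TGF relative to other regions. The median log2 ratio of siHK1 to TGF, with 0.5 added to each count, was -0.16 (interval -0.21 to -0.14, n = 3716 regions), and -0.08 over all 74751 regions. It was -0.15 for Olfr, -0.17 for Vmn1r and -0.23 for Vmn2r regions. At least 2-fold lower were 596 receptor regions (16.04%, interval 14.9 to 17.3), against 13.7% of all listed regions. At least 2-fold higher were 362 (9.74%, interval 8.81 to 10.7), against 13.0% of all listed regions. The other 2758 receptor regions lay within 2-fold. Both shares lay within a few percentage points of the background, the lower calls above it and the higher calls below it.

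By family, 17.2% of Olfr, 13.2% of Vmn1r and 16.5% of Vmn2r regions were at least 2-fold lower, and 10.0%, 8.22% and 10.7% were at least 2-fold higher. In summed reads the receptor share fell from 5.11% in TGF to 4.79% in siHK1, a log2 ratio of -0.09 (interval -0.11 to -0.08). The scaling sets the zero of these ratios. An equal loss at all regions could not be seen with it, and without scaling the median receptor region had a log2 ratio of -0.98 and the median of all regions -0.89.

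**Figure D4:**
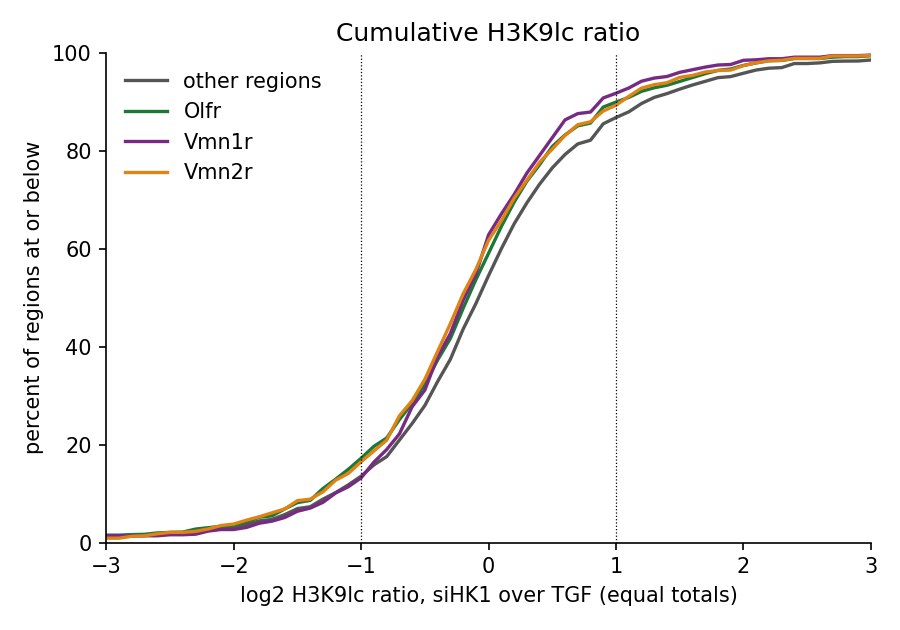
Cumulative percent of H3K9lc regions (y axis) at or below each log2 ratio of siHK1 over TGF at equal totals (x axis), for the 3 receptor families and all other regions. Dotted lines mark 2-fold. The receptor curves lie to the left of the curve of other regions through the middle of the range, with medians of -0.15, -0.17 and -0.23 against -0.08.

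The ratios were also read by base composition and copy number. In 5 equal groups of all regions by GC content, from lowest to highest, the receptor median was -0.27 (interval -0.35 to -0.23) against -0.04 in other regions, -0.11 (-0.15 to -0.05) against -0.08, -0.23 (-0.28 to -0.16) against -0.11, -0.16 (-0.22 to -0.11) against -0.07 and -0.11 (-0.15 to -0.07) against -0.08. The interval held the value of other regions in the second and the fifth group. In regions with no repeated window the medians were -0.20 (interval -0.27 to -0.12, 889 regions) and -0.02. In those with all windows repeated they were -0.16 (interval -0.22 to -0.10) and -0.10. Among distal intergenic regions alone they were -0.15 and -0.10.

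Nearly all listed regions had a peak called in at least 1 of these libraries, from the same reads as the ratios, so the calls are a description of the listed regions. A peak was called in TGF alone at 2203 receptor regions (59.3%, interval 57.7 to 60.9), in siHK1 alone at 776 (20.9%) and in both libraries at 728 (19.6%), and 9 receptor regions had none. Over all listed regions these shares were 54.7%, 24.2% and 20.8%, with 248 regions that had none. The TGF library held more reads (2490853 against 1419023 in listed regions), and how much this number has to do with the number of its peaks was not tested. Where both libraries had a peak the median ratio of receptor regions was 0.03, and that of other regions 0.08.

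The receptor regions fell into 66 loci separated by at least 1 Mb without one. Of these, 32 had at least 20 regions and together held 92.6% of the members. The 5 largest held 40.8%, and chromosome 7 alone held 1482 regions (39.9%). The largest locus, chr7:20066504-24031609, had 443 regions at 65 Vmn1r genes, or 112 per Mb, with from 1 to 175 reads per region in TGF (median 22) and from 0 to 86 in siHK1 (median 11). The summed reads were 12857 in TGF and 6482 in siHK1, a log2 ratio of -0.18 (interval -0.22 to -0.13). In this locus the median region had all its windows repeated, and a single JUN receptor region was listed. The second locus, chr7:5180865-13202745, had 413 regions of all 3 families with 10762 and 5617 reads (log2 ratio -0.13, interval -0.17 to -0.08). A single region near Vmn1r77 held 17.1% of its TGF reads. The third, chr2:85300161-90379479, was made of Olfr genes alone, with 238 regions at 116 genes and a log2 ratio of -0.19 (interval -0.26 to -0.11). It held 10 JUN receptor regions. The loci at chr7:84841706-87098033 and chr17:17686143-21344898, with 218 and 203 regions mostly at Vmn2r genes, had ratios of -0.13 and -0.20.

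All 32 loci of at least 20 regions had a median log2 ratio below 0, between -0.51 and -0.01, and 25 of them lay below the median of all listed regions. The ratio of summed reads had an interval wholly below 0 in 20 loci and wholly above 0 in 1. Loci of other genes were not counted in this way, so these counts have no background. Distal intergenic regions outside the receptor families, summed together, had a ratio of -0.023 (interval -0.027 to -0.019). The 1 receptor locus above 0 was at chr10:128996743-130595023, at 0.14 (interval 0.07 to 0.21), where the region at the end of the chromosome near Vmn2r87 held 55.2% of the TGF reads. Without that region its ratio was -0.09. The lowest ratio was -0.36 (interval -0.51 to -0.21) at chr5:108878985-109480983, where 9 Vmn2r genes had 64 regions, of which 23.4% were at least 2-fold lower and 6.25% at least 2-fold higher, beside 13.7% and 13.0% of all listed regions. The loci at the start of chromosomes 4 and 16 were at -0.01 and -0.03 and had the highest levels, 964 and 404 reads per kb in TGF. These 2 loci each held 17 JUN receptor regions, and 9 of the 32 loci held none.

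**Figure D5:**
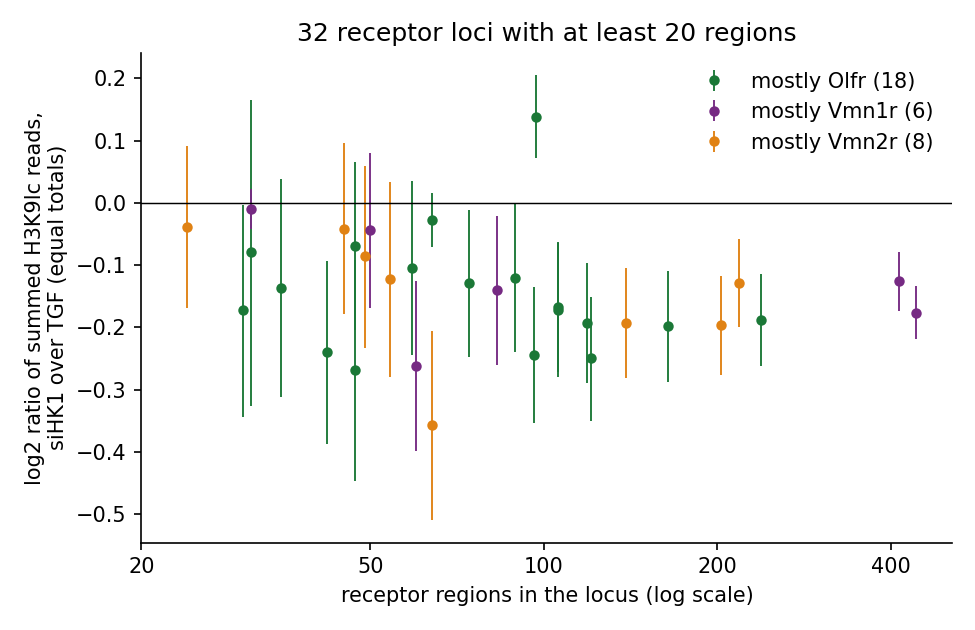
Log2 ratio of summed H3K9lc reads, siHK1 over TGF at equal totals (y axis), in the 32 receptor loci with at least 20 regions, against the number of regions in the locus (x axis, log scale). Points are loci, coloured by their most frequent family, and bars are exact 95% counting intervals. Most loci lie between -0.36 and 0, and 1 lies above 0 with its whole interval. Loci of other genes are not shown.

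The regions of lowest and highest ratio in each family were taken among those of above-median level. The Olfr1507 region at chr14:52503388-52503831, 7639 bp upstream of the start, held 26 reads in TGF and 1 in siHK1 (log2 ratio -3.33, counting interval -9.25 to -1.28). The Olfr504 region at chr7:108579337-108579804, which lies on a processed pseudogene, held 27 and 2 (-2.65, interval -6.06 to -0.95). Both had a low count in NC, with 2 and 0 reads. The Vmn2r21 region at chr6:123574308-123574926 held 25 reads in TGF against 3 in siHK1 (-2.05), and a Vmn2r47 region at chr7:8834909-8835376 held 27 and 4 (-1.80). The Vmn1r127 region at chr7:21329056-21329568 held 33 and 5 (-1.79), and the Vmn1r240 region at chr7:22109685-22110078 held 40 and 7 (-1.62). All windows of these last 4 regions were repeated elsewhere in the genome.

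The highest ratios were at 1 further Vmn2r47 region and at single regions of 5 other genes. The Vmn2r47 region at chr7:8776032-8776487, on an exon of an unprocessed pseudogene, held 8 reads in TGF and 20 in siHK1 (2.08, interval 0.89 to 3.53). The 2 Vmn2r47 regions thus lay at opposite ends of the range. The Olfr389 region at chr11:73738643-73739007 held 8 and 17 reads (1.85) and the Olfr46 region at chr7:140614322-140614787 held 10 and 19 (1.70). The Vmn2r16 region at chr5:109328053-109328575, 1587 bp upstream of the start, held 10 and 16 (1.46), the Vmn1r124 region at chr7:21237874-21238153 held 11 and 15 (1.24) and the Vmn1r75 region at chr7:11873788-11874274 held 16 and 21 (1.19). Among these regions of highest ratio, all windows were repeated at Vmn2r47 and Olfr389. The repeated share was 79.2% at Vmn1r124, 71.4% at Olfr46, 14.6% at Vmn2r16 and 0% at Vmn1r75. The 12 regions of lowest and highest ratio were chosen by their ratio, so their values are a description. None of them had a count over 40 in either library.

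At receptor start sites the levels were low. The highest of the 97 regions within 1 kb of a start, at chr7:7277662-7278696, was assigned to Vmn2r29 by the authors. In the annotation used here it overlaps the protein-coding gene Gm45844 and the pseudogene Gm18190, and not Vmn2r29. It held 164 reads in TGF, 73 in siHK1 and 8 in NC, with a log2 ratio of -0.35 (interval -0.77 to 0.05) between siHK1 and TGF. The next 4 held between 23 and 46 reads in TGF and between 20 and 23 in siHK1, and lay at Vmn2r60, Olfr122, Olfr279 and Vmn2r-ps54. The regions at Vmn2r60 and Vmn2r-ps54 each overlapped a processed pseudogene of another gene as well. Intervals of the ratio included 0 at all 5.

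A few olfactory receptors are known to act outside the nose, among them Olfr78, Olfr558, Olfr544 and Olfr1393. Olfr78 and Olfr558 had no listed region in any of the 3 tables. Olfr1393 had 1 H3K9lc region at chr11:49283502-49283838, 3352 bp from its start, with 11 reads in TGF, 4 in siHK1 and 0 in NC (log2 ratio of siHK1 to TGF -0.54, interval -2.75 to 1.11). Its JUN region lay elsewhere, 11828 bp upstream, with 55 reads in TGF and 16 in siHK1 (-0.86, interval -1.79 to -0.06). Olfr544 had no H3K9lc region and 1 JUN region with 80 and 59 reads (0.46, interval -0.06 to 0.96).

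TGF-β was set against the control in the other H3K9lc table, which shares the TGF library. In reads summed over receptor regions, NC held 4782 of 115572 listed reads (4.14%, interval 4.02 to 4.25) and TGF 119505 of 2313288 (5.17%, interval 5.14 to 5.19), a log2 ratio of TGF to NC of 0.32 (interval 0.28 to 0.36). On this list 90.6% of receptor regions against 85.9% of all regions had a peak in TGF alone, from the same reads, so the ratio of sums is a description of listed regions. By family this ratio was 0.35 for Olfr, 0.37 for Vmn1r and 0.19 for Vmn2r regions. For distal intergenic regions outside the receptor families it was 0.17. The median log2 ratio was -0.08 for receptor regions and for all regions alike, and both medians rest on 1 read in NC. At least 2-fold lower in TGF were 705 receptor regions (21.8%) against 24.9% of all listed regions, and at least 2-fold higher were 476 (14.7%) against 14.7%. With no scaling the lower and higher counts were 24 and 3117 (2.47% and 92.2% of all listed regions), so these counts give no direction. A peak was called in TGF alone at 2930 receptor regions, in NC alone at 248 (7.67%, against 12.4% of all regions), in both at 55 and in neither at 1. At this number of reads in NC, no receptor region of typical level could be compared on its own.

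For JUN the receptor regions, listed separately from those of H3K9lc, had a ratio of siHK1 to TGF near that of all JUN regions. They held 13147 of 4215447 listed JUN reads in TGF (0.312%) and 7411 of 2271336 in siHK1 (0.326%), a log2 ratio of 0.07 (interval 0.02 to 0.11). The median log2 ratio was -0.01 (interval -0.10 to 0.12, n = 207 regions), and -0.04 over all JUN regions. At least 2-fold lower in siHK1 were 24 receptor regions (11.6%) against 11.4% of all listed JUN regions, and at least 2-fold higher were 22 (10.6%, interval 6.78 to 15.6) against 7.44%. Regions within 250 kb of a chromosome end held 48.0% of the JUN receptor reads in TGF. The JUN regions of highest level within 3 kb of a start were at Olfr432, with 174 reads in TGF and 86 in siHK1, at Olfr433 with 142 and 73 and at Olfr983 with 116 and 100. None of these 3 overlapped an H3K9lc region.

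Genes that work with the receptors were looked at as a further list. Of 19 genes for odorant signalling, receptor transport and receptor choice, 13 had H3K9lc regions, 52 in all, of which 6 were at least 2-fold lower and 10 at least 2-fold higher in siHK1, beside 13.7% and 13.0% of all listed regions. Their median log2 ratio was 0.10. Those with regions included Gnal, the G protein subunit of olfactory neurons, with 9 regions, and Lhx2, a transcription factor needed for olfactory receptor expression, with 6. Omp, Adcy3 and Trpc2 had none. Of 6 other chemoreceptor families, the trace amine (Taar), taste (Tas1r, Tas2r), Mrgpr, formyl peptide (Fpr) and Ms4a genes, 51 genes had 267 regions with a median log2 ratio of -0.11, and 46 of the regions were at least 2-fold lower and 29 at least 2-fold higher, beside the same 13.7% and 13.0% of all listed regions. By family the median was -0.16 for the bitter taste receptors (Tas2r, 87 regions), -0.09 for Mrgpr (139 regions), -0.16 for Taar (5 regions), -0.21 for Ms4a (13 regions), 0.24 for Tas1r (12 regions) and 0.07 for Fpr (11 regions). The Mrgpr genes had no JUN region.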

How the data were processed

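Deposited tables of CUT&Tag regions from 5 of 10 mouse cardiac fibroblast libraries were used. They hold the counts of reads per region that the authors obtained in each library, a mark (other) for a peak called there, and the nearest gene. The methods name Bowtie2, MACS2, GRCm39 and spike-in DNA, whereas the submitters' processing notes name BWA 0.7.12 and mm10. All 17995 transcripts of the H3K9lc table found in GENCODE M21 had its GRCm38 coordinates, so GRCm38 is used, counted from 1. How reads with several matching places were counted is not given in the sources used here. The deposited comparison columns (log2 ratios, p-values and calls of the authors) were not used, nor were 12 columns of normalized values or marks that match no library label. The totals cover listed regions alone, and the depth of each library is unknown. The members, gene lists and named regions were chosen with earlier results of these data known.

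Counts were scaled to equal totals over listed regions and compared as log2 with 0.5 added (Python 3.11.15, pandas 2.3.3, scipy 1.17.1), and at least 2-fold was taken as lower or higher. Shares carry exact Clopper-Pearson 95% intervals, medians binomial order-statistic intervals and ratios of counts exact binomial intervals. PCR copies are not independent molecules, so intervals of reads cover counting error only, and regions are not replicates. Territory is the sequence whose nearest GENCODE M21 start, among genes with an Entrez Gene entry, is a receptor gene. The 1439 receptor genes of the annotation were counted among the same genes. The regions named are, by family, the 2 lowest and 2 highest ratios among regions of above-median level and the 2 of highest level, then the 5 of highest level within 1 kb of a start and those of 4 receptors known outside the nose. The script was tested on simulated data.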

Additional observations from a re-analysis of the deposited data

How the results depend on the processing

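No test was made between conditions, and the values below describe how the numbers move with 21 results under 135 alternatives, of which 58 stayed within the interval of the value or 1.5 times of a count, 69 moved and 8 changed sign. No paired analysis was possible because there is 1 library per condition. The authors' normalized log2 values were not run as an alternative because their columns match no library label. Alternatives with peaks in both libraries, the 20 highest regions, chromosome ends, repeated windows or region midpoints were chosen after seeing the data. Causes were not tested.

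For H3K9lc in siHK1 against TGF the scaling moves the receptor median and that of all regions by the same amount, so the alternatives in scaling say nothing of the gap between them. The receptor median was -0.98 with no scaling (all regions -0.89), -0.24 when scaled to regions with peaks in both libraries (-0.16), -0.11 in regions at or above the median level (-0.06), and -0.094 as a sum of reads. The 596 lower and 362 higher regions became 1088 and 609 at 1.5-fold (25.3% and 20.7% of all regions), 125 and 85 at 4-fold (2.98% and 4.04%), and 1827 and 122 with no scaling (43.99% and 4.94%). At or above the median level they were 111 and 40 of 1845 receptor regions (6.02% and 2.17%), against 4.14% and 3.21% of all such regions. With no repeated window they were 206 and 134 of 889 receptor regions (23.2% and 15.1%), against 17.7% and 20.7% of all such regions.

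For TGF against NC the receptor median was -0.70 with pseudocount 1 (all regions -0.74) and 1.19 with pseudocount 0.1 (0.86). It was 4.25 with no scaling (4.25), 0.75 when scaled to regions with peaks in both libraries (0.75) and -0.48 at or above the median level (-0.38). The sum of reads gave 0.32, so no direction is given for the receptor median. The 705 lower and 476 higher regions became 1240 and 90 with pseudocount 1 (41.1% and 2.99% of all regions), 24 and 3117 with no scaling (2.47% and 92.2%), and 317 and 1382 when scaled to regions with peaks in both (14.1% and 40.5%). The lower count was 300 at 4-fold (13.7%). The higher count was 866 at 1.5-fold (25.6%) and 81 at 4-fold (2.50%). At or above the median level it was 206, which is 12.6% of the receptor regions at that level, against 14.2% of all such regions.

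For JUN the receptor median was 0.0046 with pseudocount 1 (all regions -0.025), -0.90 with no scaling (-0.94) and 0.014 at or above the median level (0.027). It was 0.012 without chromosome ends (-0.045), and the sum of reads gave 0.065. The 24 lower and 22 higher regions became 47 and 43 at 1.5-fold (21.9% and 15.7% of all regions), 2 and 7 at 4-fold (2.39% and 1.72%), and 88 and 7 with no scaling (45.9% and 2.002%). At or above the median level they were 3 and 1 of 96 receptor regions (3.1% and 1.04%), against 2.9999% and 1.76% of all such regions. With no repeated window they were 12 and 10 of 108 receptor regions, against 11.4% and 7.47% of all such regions.

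The receptor share of listed reads was, in distal intergenic regions alone, 7.37% in TGF, 7.08% in siHK1 and 6.84% in NC for H3K9lc, and 0.745% and 0.781% for JUN in TGF and siHK1. Without the highest region it was 4.92% (TGF), 4.60% (siHK1), 3.91% (NC), 0.295% and 0.302%. Without the 20 highest it was 3.55%, 3.20%, 2.63%, 0.158% and 0.158%, and without chromosome ends 3.84%, 3.52%, 3.13%, 0.165% and 0.174%. Receptor regions were 4.97% of the siHK1 table and 4.91% of the NC table. These shares became 4.73% and 4.68% of covered bases, 5.198% and 5.18% of regions with a TGF peak, 9.17% and 8.97% of regions within 10 kb of a start, and 4.68% and 4.63% by midpoint. At or above the median level, peaks were in TGF alone at 52.7% of receptor regions (48.9% of all regions), in siHK1 alone at 10.7% (11.5%) and in both at 36.1% (39.1%). The promoter share was 2.61% within 1 kb.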
